A study of Drosophila melanogaster with 2 samples.

Results

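Small nuclear RNA (snRNA) genes were defined as every gene of biotype snRNA on the nuclear chromosomes of the Ensembl annotation of the dm6 build, which gave 32 of 18164 annotated genes. By name they fall into 12 classes: 5 genes for U1, 6 for U2, 3 for U4, 7 for U5, 3 for U6, 2 for 7SK and 1 each for U7, U11, U12, U4atac, U6atac and LU. Of the 32, 16 lie on 2L, 10 on 3R, 4 on 3L and 2 on X, with none on 2R or chromosome 4. The genes are 71 to 444 bp long, and RefSeq gives the same coordinates for 32 of 32. A gene was counted when the summit of a peak of tagged Pho lay within 500 bp of its annotated start.

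Pho (Pleiohomeotic) is a zinc finger protein of the Polycomb group that binds DNA by sequence. Its sites were mapped by chromatin immunoprecipitation and sequencing in whole transgenic Drosophila melanogaster embryos of mixed sex, aged 0 to 24 h, in which an inserted pho gene carries GFP at its C terminus and an anti-GFP antibody pulls the fusion down. The series is 1 group of 2 biological replicates, numbered 3 and 4, with no second condition. The authors called the peaks against 1 shared control file, which was not analysed here and whose kind the sources used here do not state. Each library averages all embryonic stages and tissues, and without a library known to come from untagged embryos, binding of Pho at a start cannot be told apart from precipitation of open chromatin there. The deposited files hold peaks and no reads, so read depth is unknown and an absent entry is not evidence of absent binding. The 4 lists read were the optimal list kept by the authors' reproducibility threshold (4293 peaks), the pooled list from the reads of both replicates (30000 entries), and a list for each replicate (30000 entries each). The last 3 are relaxed lists that mix peaks with background by design, and the optimal list equals the 4293 strongest entries of the pooled list, so an optimal summit is also a pooled summit.

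The U1, U2, U4, U5 and U6 RNAs form the core of the major spliceosome, while U11, U12, U4atac and U6atac serve the minor spliceosome, which removes a rare class of introns. U7 takes part in forming the 3′ ends of histone mRNAs, and 7SK RNA holds the elongation kinase P-TEFb inactive. In Drosophila most snRNA genes are read by RNA polymerase II and those for U6, U6atac and 7SK by RNA polymerase III. Both kinds carry an upstream proximal sequence element, bound by the complex known as SNAPc or PBP, and the polymerase III genes add a TATA box downstream of it.

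The bases upstream of 8 genes are shown because they hold the promoter elements and the places where the peaks lie. They are the 6 genes with an optimal summit, together with U6:96Aa and 7SKb, the genes of the U6 and 7SK classes that had no summit in any list. Each line gives the 90 bases before the start on the strand of the gene, from the RefSeq sequence of Release 6 (dm6), with capitals on the word TTCNCAA (N is any base), which is part of the proximal sequence element:
snRNA:U1:95Ca (chr3R:23859631-23859720, minus strand): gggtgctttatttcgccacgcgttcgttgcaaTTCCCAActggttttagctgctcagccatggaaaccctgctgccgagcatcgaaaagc
snRNA:U2:34ABb (chr2L:13215749-13215838, plus strand): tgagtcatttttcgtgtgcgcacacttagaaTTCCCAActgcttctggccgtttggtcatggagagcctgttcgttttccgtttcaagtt
snRNA:U5:63BC (chr3L:3090711-3090800, plus strand): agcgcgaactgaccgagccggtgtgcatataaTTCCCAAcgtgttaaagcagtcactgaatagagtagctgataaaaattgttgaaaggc
snRNA:U6:96Ac (chr3R:24557125-24557214, plus strand): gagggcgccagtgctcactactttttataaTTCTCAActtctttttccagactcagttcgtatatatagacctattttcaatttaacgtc
snRNA:U6:96Ab (chr3R:24556602-24556691, plus strand): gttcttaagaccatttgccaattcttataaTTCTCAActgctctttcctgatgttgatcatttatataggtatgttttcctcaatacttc
snRNA:U6:96Aa (chr3R:24555998-24556087, plus strand): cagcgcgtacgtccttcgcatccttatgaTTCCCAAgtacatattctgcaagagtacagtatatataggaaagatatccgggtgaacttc
snRNA:7SKa (chr3R:7474997-7475086, minus strand): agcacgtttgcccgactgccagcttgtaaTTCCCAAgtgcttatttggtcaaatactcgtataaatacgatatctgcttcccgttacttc
snRNA:7SKb (chr3R:23432779-23432868, plus strand): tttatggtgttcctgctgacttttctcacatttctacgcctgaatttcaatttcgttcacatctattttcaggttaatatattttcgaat

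The word stood at nearly the same place in almost the whole family. On the strand of the gene it began 55 to 64 bases before the start in 31 of 32 snRNA genes (median 58 bases), as TTCCCAA in 26 and TTCTCAA in 5. The exception was 7SKb. The same word began in that range in 75 of the other 18132 annotated genes (0.414%). Counted on both strands anywhere from 250 bases before to 50 after the start, TTCNCAA was found in 96.9% of snRNA genes and in 19.4% of all annotated genes. A TATA-type word, TATAAA or TATATA, lay within the last 40 bases before the start in 5 genes. These were the 3 U6 copies, U6atac and 7SKa, each of a class read by polymerase III, while 7SKb had no such word there. The range of positions and the word TATATA were chosen after the sequences were seen. Since 31 genes share the upstream word, it does not separate the 6 genes with an optimal summit from the other 26.

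An optimal summit lay at 6 of the 32 snRNA genes, namely U1:95Ca, U2:34ABb, U5:63BC, U6:96Ab, U6:96Ac and 7SKa. That is 18.8% of the family, beside 19.2% of all annotated genes. Each snRNA gene has 1 annotated transcript, whereas the other genes were counted at any of their transcript starts. The family share was thus close to a background in which genes with several starts have more chances to be counted. The 6 genes had 5 distinct summits, because U6:96Ab and U6:96Ac share 1. The pooled list had a summit at 17 snRNA genes (53.1%, beside 50.0% of all annotated genes). The list of replicate 3 had one at 15 (46.9%, beside 50.0%) and that of replicate 4 at 13 (40.6%, beside 47.9%). Both replicates had a summit at 11 snRNA genes (34.4%, beside 40.3%). The remaining 15 snRNA genes had no summit in any of the 4 lists. Within 500 bp of an optimal summit lay 3.03% of the bases of the 6 chromosome arms, against 18.8% for the pooled list.

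**Figure D1:**
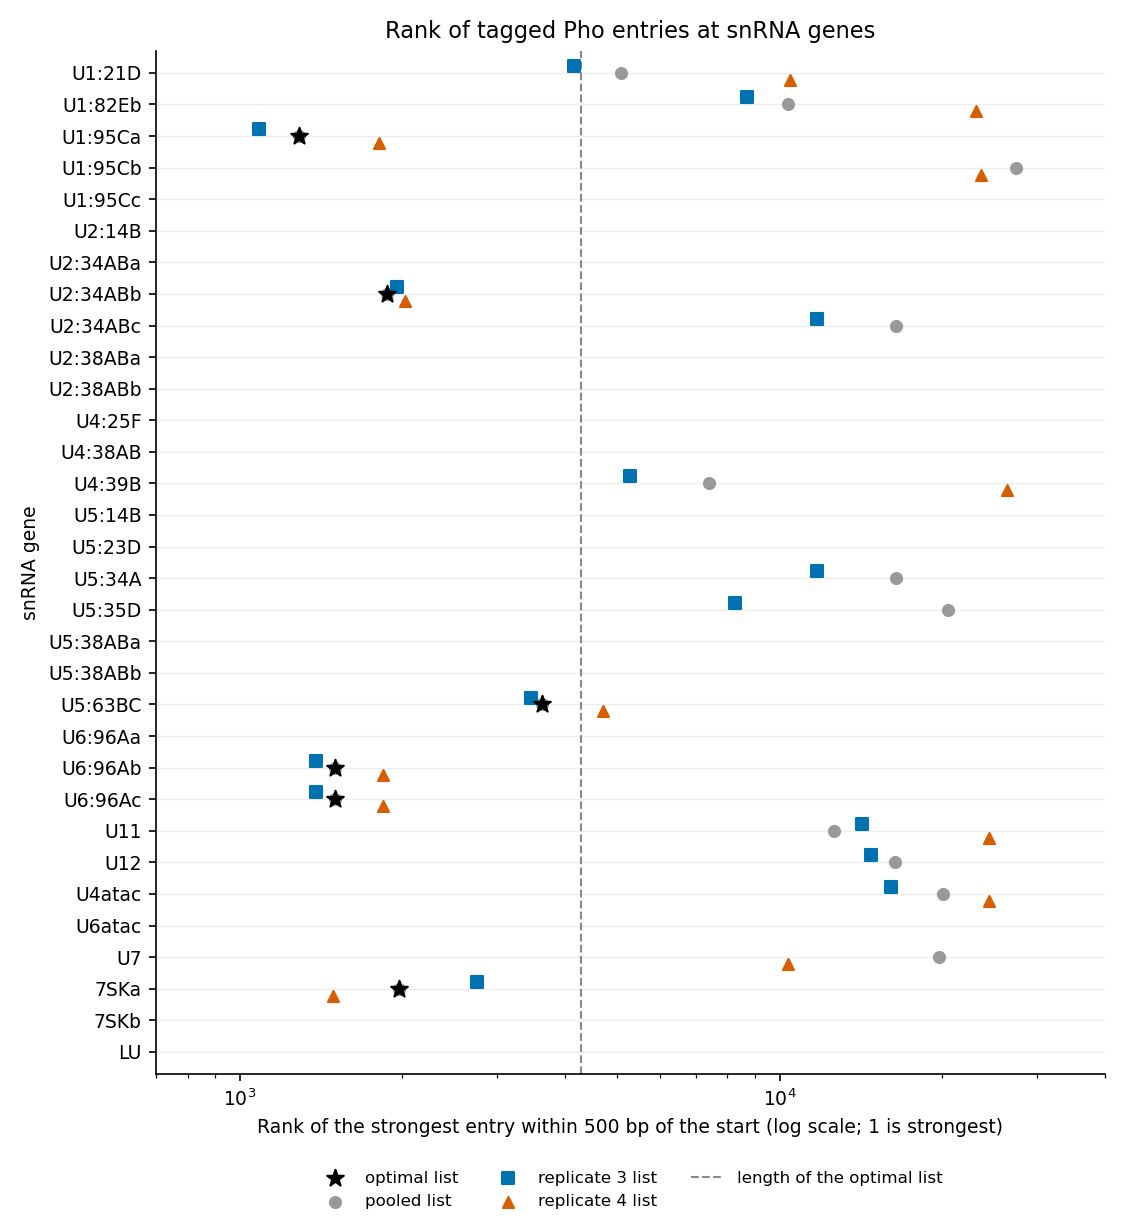
Rank of the strongest entry within 500 bp of the start of each of the 32 snRNA genes (vertical axis, by class) in the optimal, pooled, replicate 3 and replicate 4 lists, on a log scale on which rank 1 is the strongest. The dashed line marks rank 4293, the length of the optimal list, and a gene with no symbol had no summit in that list; the 6 genes with a star have an optimal summit, and U6:96Ab and U6:96Ac share theirs.

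Among the 5 U1 genes, whose RNA recognises the 5′ splice site, U1:95Ca carried the strongest peak of the family. It spans chr3R:23859408-23859843, and its summit lay 4 bp downstream of the start. It ranked 1287 of 4293 in the optimal list with a signal value of 193.3 (the authors' measure of the strength of a peak, used here only within a list). In replicate 3 the summit was at 1 bp downstream, with rank 1084 and signal value 128.9, and in replicate 4 at 18 bp downstream, with rank 1809 and signal value 65.26. Both replicates thus placed it at the start itself. The nearest protein-coding start, of Pli, was 30426 bp away, the greatest such distance among the 6 genes. U1:21D, a copy with the same RNA sequence, had an entry inside the gene in the 3 relaxed lists, at rank 5089 in the pooled list, 4160 in replicate 3 and 10443 in replicate 4. U1:82Eb had one at rank 10340, 8695 and 23138 in the same lists, U1:95Cb had one at pooled rank 27384 and replicate 4 rank 23619, and U1:95Cc had none.

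Among the 6 U2 genes, whose RNA pairs with the branch point, U2:34ABb was the one with an optimal summit. Its peak (chr2L:13215808-13216243) ranked 1873 with a signal value of 157.9, and its summit lay 187 bp downstream of the start, near the 3′ end of the 192 bp gene. The replicates placed it at 184 bp (replicate 3, rank 1958, signal value 93.52) and 186 bp (replicate 4, rank 2024, signal value 60.84). Their ranks were the closest of the pairs, and their summits 2 bp apart. The start of kek4, the nearest protein-coding gene, was 676 bp from the optimal summit. U2:34ABc and U5:34A are divergent neighbours and shared 1 weak entry between them, at pooled rank 16411 and replicate 3 rank 11731, with none in replicate 4. The other 4 U2 genes, U2:14B, U2:34ABa, U2:38ABa and U2:38ABb, had no entry.

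U4 RNA holds U6 RNA by base pairing until the spliceosome is activated, and none of its 3 genes had an optimal summit. U4:39B had an entry inside the gene at rank 7403 in the pooled list, 5281 in replicate 3 and 26311 in replicate 4, and U4:25F and U4:38AB had none. Of the 7 genes for U5, which aligns the exons for joining, U5:63BC had an optimal summit, the lowest in rank of the 6. Its peak (chr3L:3090556-3090991) ranked 3626 with a signal value of 102.6 and its summit lay 27 bp upstream of the start, 8796 bp from the start of PAN3. A neighbouring pooled entry lay 178 bp downstream of the start at rank 5021. In replicate 3 the strongest summit was 114 bp downstream of the start (rank 3461, signal value 66.04), and in replicate 4 it was 48 bp upstream (rank 4701, signal value 36.09). The replicates thus differed by 162 bp in where the strongest summit of U5:63BC lay, the widest gap of the family. U5:35D had a pooled entry at rank 20490, and this was the 1 pooled summit of the 17 genes that lay nearer to a protein-coding start (ND-B17, 276 bp) than to the snRNA start (328 bp). U5:14B, U5:23D, U5:38ABa and U5:38ABb had no entry.

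The 3 genes for U6, the RNA at the catalytic centre, form a cluster on 3R. The summit of a single peak (chr3R:24556886-24557321) stood between U6:96Ab and U6:96Ac. It lay 111 bp upstream of the start of U6:96Ac and 412 bp downstream of that of U6:96Ab. The peak itself reaches over the U6:96Ac gene (chr3R:24557215-24557321). It ranked 1500 in the optimal list (signal value 178.5), 1381 in replicate 3 (113.4) and 1841 in replicate 4 (64.67). The summit was therefore nearest to the U6:96Ac start in each list, and 1 peak accounts for the count of both genes. U6:96Aa, with the same RNA sequence, lay 1016 bp from the nearest pooled summit, which is the summit of that same peak. The nearest protein-coding start to the peak, that of Esyt2, was 8087 bp away. Replicate 3 had a further entry inside U6:96Ac, 103 bp downstream of its start, at rank 26142.

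7SKa had a peak over the gene (chr3R:7474548-7474983), with the optimal summit inside it, 230 bp downstream of the start of a gene 444 bp long. It ranked 1975 in the optimal list (signal value 152.6), 2750 in replicate 3 (76.21, summit at 228 bp) and 1488 in replicate 4 (73.09, summit at 246 bp). This was the 1 snRNA gene of 11 that ranked higher in replicate 4 than in replicate 3. A further entry at 30 bp downstream of the start stood at pooled rank 8799, and one at 40 bp at replicate 4 rank 3729. The start of CG1142 lay 985 bp from the optimal summit. 7SKb, whose sequence is 49.7% identical to that of 7SKa and whose promoter lacks the shared word, was 12544 bp from the nearest pooled summit, the farthest of the family.

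None of the 4 genes of the minor spliceosome and U7 had an optimal summit, and those with entries had them in relaxed lists. U11 had its entry inside the gene at rank 12601 in the pooled list, 14189 in replicate 3 and 24406 in replicate 4. U4atac had one at 20040, 16082 and 24432 in the same lists, 29 bp upstream of the start in the pooled list. U12 had one at pooled rank 16367 and replicate 3 rank 14772, and none in replicate 4. These entries lie in the parts of the lists where the −log10 q-values given by the authors were low. In the pooled list they were 0.6015 for U11, 0.336 for U12 and 0.2048 for U4atac. Each of the 6 genes with an optimal summit had 3.893 at that summit, which is the highest value in the list. U7 had pooled entries 135 bp (rank 22011) and 379 bp (rank 19764) upstream of the start, with −log10 q-values of 0.1591 and 0.2124. In replicate 4 its entries lay 219 bp (rank 28998) and 437 bp (rank 10353) upstream, and replicate 3 had none. U6atac and LU had no entry.

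**Figure D2:**
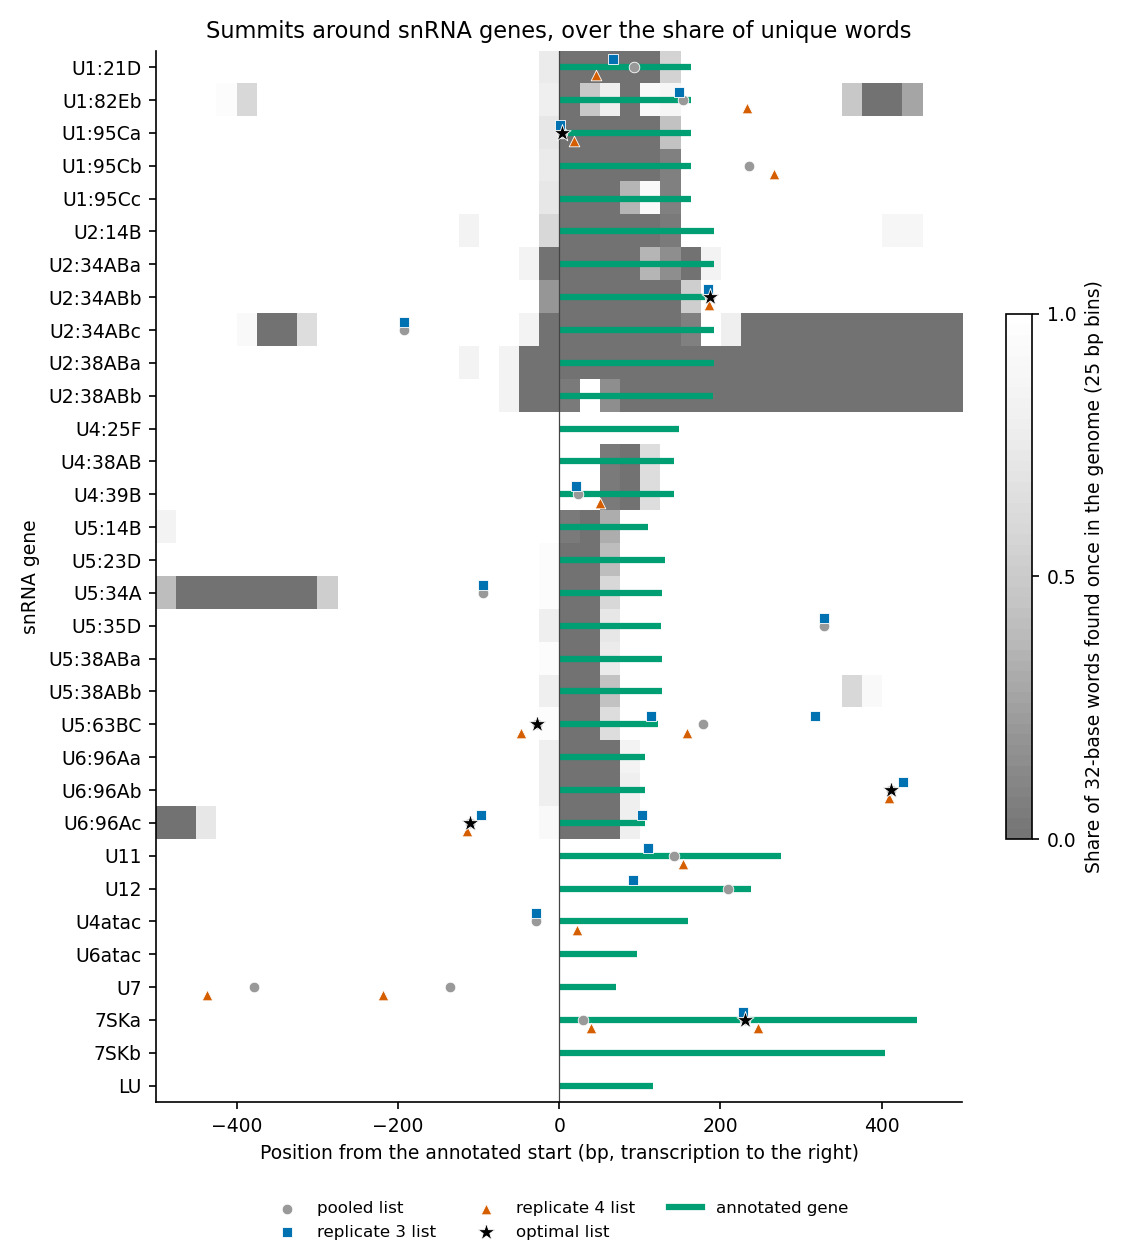
Every summit within 500 bp of the start of the 32 snRNA genes, by position from the start in bp (horizontal axis, transcription to the right) and by list (symbols), over the annotated gene (green) and the share of 32-base words that occur once in the genome, in bins of 25 bp (grey scale, dark where copies share the words). The optimal summits stand from 111 bp upstream to 412 bp downstream of the starts, and the dark bands cover most of the bodies of the U1, U2 and U6 genes.

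The replicates gave summits at nearly the same place but not at the same rank. For the 11 snRNA genes in both lists, the strongest summits lay within 50 bp of each other in 8 and within 100 bp in 10 (median 22 bp). The rank was weaker in replicate 4 in 10 of the 11, by up to 4.98 times at U4:39B, with U6:96Ab and U6:96Ac counted by the same peak. Over the 12650 pooled entries with a summit of both replicates within 100 bp, the rank was weaker in replicate 4 in 50.2%. That share is not the same measure. It takes the replicate summits nearest to each pooled summit, whereas the 11 genes were read by the strongest summit within 500 bp of the start. The 5 optimal peaks ranked from 1084 to 3461 in replicate 3 and from 1488 to 4701 in replicate 4, so that U5:63BC alone fell outside the strongest 4293 entries of a replicate. Only replicate 3 had a summit at 4 snRNA genes, and only replicate 4 at 2.

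Summits were not confined to the upstream side. Taking the strongest summit of each gene, the optimal list had 2 upstream, 3 inside and 1 downstream of the gene, and the pooled list 6 upstream, 8 inside and 3 downstream. At 4 of the 6 genes the optimal peak covered the annotated start itself. Entries at snRNA genes were 436 bp wide in the optimal and pooled lists, 440 bp in replicate 3 and 420 bp in replicate 4, whatever their rank. Their width therefore does not measure how far the signal extended at a gene.

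A protein-coding start was rarely as near as the snRNA start. The optimal summit was nearer to the snRNA start in 6 of 6 genes, and the nearest protein-coding start lay 676 to 30426 bp from it. In the pooled list the summit was nearer to the snRNA start in 16 of 17 genes. Since summits were chosen within 500 bp, this was fixed for genes with no protein-coding start within 1000 bp of their own. Such genes were 5 of the 6 and 14 of the 17. Of all 32 snRNA genes, 3 (9.38%) had a protein-coding start within 500 bp of their own: U2:34ABa (CG15482, 302 bp), U6atac (CG42819, 393 bp) and U2:34ABb (kek4, 489 bp). Of these U2:34ABb alone had a summit in any list.

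**Figure D3:**
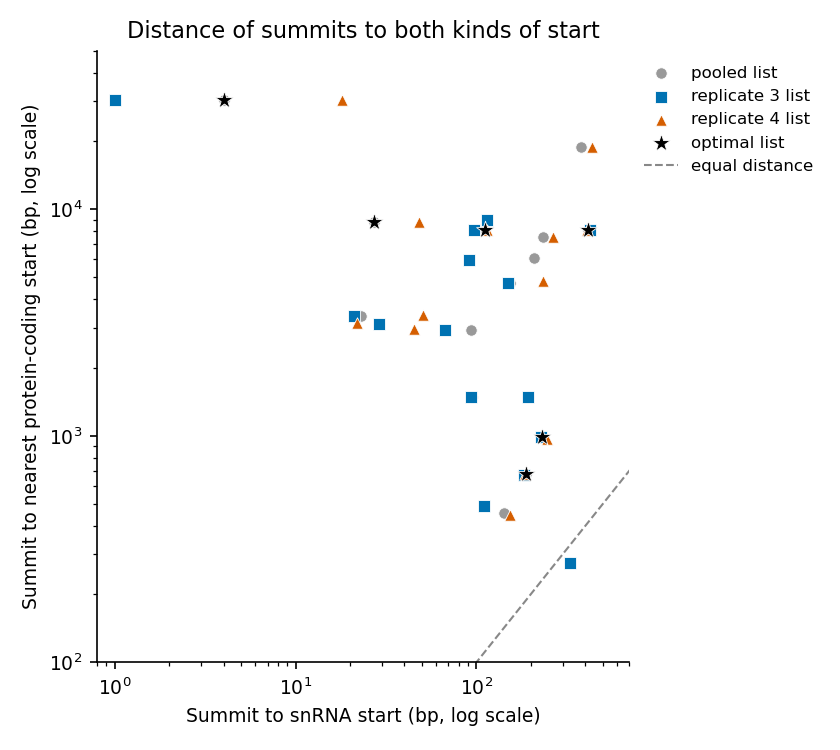
Distance in bp of the strongest summit of each snRNA gene to the snRNA start (horizontal axis, log scale) and to the nearest protein-coding start (vertical axis, log scale), for the 4 lists. The dashed line marks equal distance; each of the 6 optimal summits lies above it, and the symbols below it belong to U5:35D.

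Other families of small RNA genes were read as a second background beside all genes, though their setting differs. Another gene overlaps 257 of 269 snoRNA genes and 135 of 290 tRNA genes, against 18 of 32 snRNA genes. An optimal summit lay at 6 of 32 snRNA genes (18.8%), against 20 of 290 tRNA genes (6.90%) and 18 of 269 snoRNA genes (6.69%), while protein-coding genes had one at 3235 of 13945 (23.2%). In the pooled list the shares were 53.1% of snRNA genes, 46.2% of tRNA genes, 35.3% of snoRNA genes and 56.4% of protein-coding genes. Among genes with no protein-coding start within 1000 bp of their own, 5 of 27 snRNA genes (18.5%) had an optimal summit, against 8 of 211 tRNA genes (3.79%) and 6 of 184 snoRNA genes (3.26%). The optimal summit was nearer to the gene's own start than to a protein-coding start at 6 of 6 snRNA genes, 11 of 20 tRNA genes and 11 of 18 snoRNA genes. With no protein-coding start within 1000 bp of the gene's own, the 500 bp rule fixes this outcome. That holds for 5, 8 and 6 of the genes with an optimal summit, in the same order. The comparison therefore also reflects how far each family lies from protein-coding starts. These are counts of genes, some of which share a peak, and no test of the difference between families was made.

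**Figure D4:**
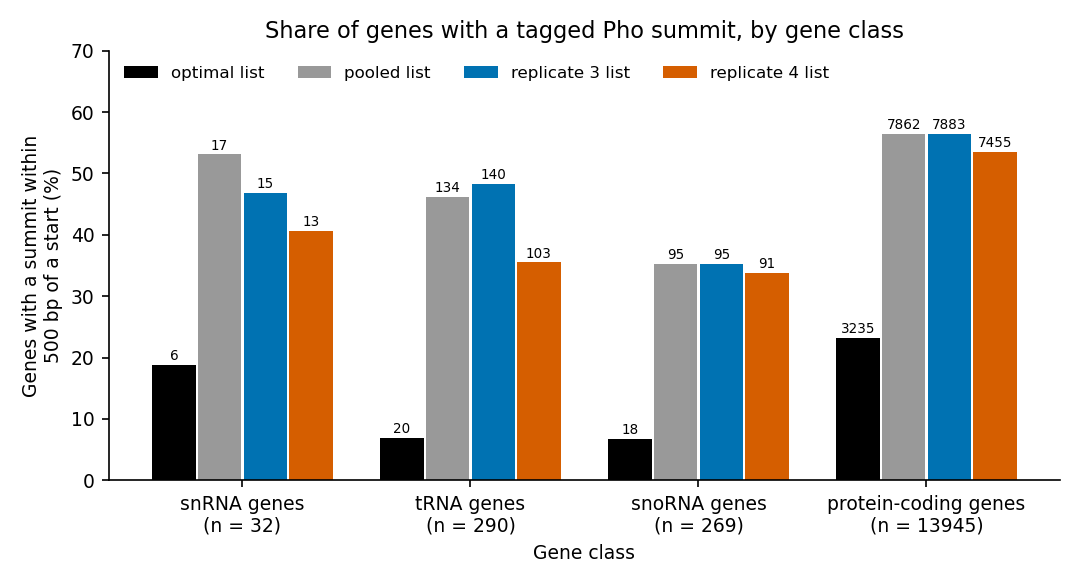
Share of genes (%, vertical axis from 0) with a summit within 500 bp of a transcript start, for snRNA, tRNA, snoRNA and protein-coding genes, in each of the 4 lists; the number above each bar is the count of genes. In the optimal list 18.8% of snRNA genes had a summit, against 6.90% of tRNA genes, 6.69% of snoRNA genes and 23.2% of protein-coding genes.

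The genes were also read by whether they overlap another annotated gene, a split chosen after the values were seen. Of the 32 genes, 18 overlap another annotated gene, 16 of them inside an intron of a protein-coding gene, and 14 overlap none. The 6 genes with an optimal summit were among the 14 that overlap none (42.9%), and 0 of the 18 overlapping genes had one. For the pooled list the counts were 10 of 14 (71.4%) and 7 of 18 (38.9%). Over all annotated genes an optimal summit lay at 17.0% of those that overlap no other gene and at 21.4% of those that do, and over tRNA genes at 7.10% and 6.67%. Over snoRNA genes it lay at 3 of 12 that overlap none (25.0%) and at 15 of 257 that overlap another gene (5.84%), so the split ran the same way there as in snRNA genes. Its part in the result was not tested.

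The genes without any entry were also grouped by place. The 5 snRNA genes of region 38AB, U2:38ABa, U2:38ABb, U4:38AB, U5:38ABa and U5:38ABb, all lie in introns of sick and had no summit in any list. Neither did U2:14B and U5:14B, neighbours on X, nor U5:23D and LU, both in introns of FASN2. Over the 15 genes without an entry the nearest pooled summit was 966 to 12544 bp from the start (median 4734 bp).

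Copies within several classes share long stretches of sequence, which bears on where reads can be placed. The bodies of the 3 U6 genes are identical, those of the U1 genes 98.2% to 100% and those of the U2 genes 98.4% to 100% identical, while the 100 bases upstream are 59.4% to 63.1% identical in U6, 59.6% to 67.6% in U1 and 52.9% to 90.0% in U2. Of the 32-base words in the body, 0% occur once in the genome at U1:95Ca, U2:34ABb and the 3 U6 genes. The same holds at U1:21D, U1:95Cb, U2:34ABc and U2:38ABa, none of which has an optimal summit. Within 500 bp of the start, 81.8% to 100% of the words occur once at genes with an optimal summit (median 88.8%), 45.7% to 100% at genes with relaxed entries only (median 93.8%) and 44.2% to 100% at genes with none (median 93.0%). Within 50 bp of the optimal summit the share was 38.6% at U1:95Ca, 75.2% at U2:34ABb and at U5:63BC, and 100% at 7SKa and at the summit between U6:96Ab and U6:96Ac. How the reads of repeated words were placed is not given in the sources used here, and its part in the result was not tested. The 7SKa peak and the U6 peak have their summits in sequence that occurs once. U2:38ABa and U2:38ABb, at 44.2% and 47.6%, had the least unique surroundings of the genes without an entry, and 10 of those 15 genes had more than 90% unique words.

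The sequence under the 5 optimal summits follows, since the Pho core word GCCAT and the promoter words were searched there. Each line gives the 101 bases centred on the summit, on the strand of the gene (that of U6:96Ac for the shared peak), with capitals on GCCAT or TTCNCAA where present on that strand:
snRNA:U1:95Ca (chr3R:23859576-23859676, minus strand): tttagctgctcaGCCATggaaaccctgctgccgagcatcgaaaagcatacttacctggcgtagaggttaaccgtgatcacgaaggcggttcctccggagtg
snRNA:U2:34ABb (chr2L:13215976-13216076, plus strand): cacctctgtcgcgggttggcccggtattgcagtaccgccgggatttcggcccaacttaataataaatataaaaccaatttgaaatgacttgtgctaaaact
snRNA:U5:63BC (chr3L:3090724-3090824, plus strand): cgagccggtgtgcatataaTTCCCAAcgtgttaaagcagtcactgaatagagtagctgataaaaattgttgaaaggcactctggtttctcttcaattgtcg
snRNA:U6:96Ac (chr3R:24557054-24557154, plus strand): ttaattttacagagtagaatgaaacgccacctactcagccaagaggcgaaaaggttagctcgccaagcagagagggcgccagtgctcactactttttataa
snRNA:7SKa (chr3R:7474716-7474816, minus strand): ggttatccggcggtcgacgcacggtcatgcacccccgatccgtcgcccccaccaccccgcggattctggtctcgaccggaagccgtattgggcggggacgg

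GCCAT, searched on both strands, lay within 50 bp of 1 of these 5 summits, that of U1:95Ca, beside 15.8% of the 4293 optimal peaks. In the promoter windows it was found in 15 of 32 snRNA genes (46.9%) and 41.3% of all annotated genes. TATCGATA, the site of the replication-related element factor DREF, was found in 0 of 32 snRNA promoters and 7.51% of all. GAGAG, a word bound by the GAGA factor, was found in 28.1% and 29.5%, and TATAAA in 46.9% and 43.9%. CAANTG, a word that partly overlaps TTCNCAA in some of the promoters shown, was found in 81.2% of snRNA genes and 56.8% of all. Under the summits TTCNCAA lay within 50 bp of 1 of 5, beside 6.85% of the 4293 optimal peaks. That was U5:63BC, whose summit is 27 bp upstream of the start. TATAAA lay there at 2 of 5 (beside 16.5%), and CAANTG (21.5%) and GAGAG (11.2%) at 1 of 5 each. TATATA (7.66%) and TATCGATA (3.35%) lay at 0 of 5.

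The protein genes of the same pathway were read as a list beside the RNA genes. Of 64 matched genes listed mainly for snRNA transcription, processing, assembly or binding, 24 (37.5%) had an optimal summit and 57 (89.1%) a pooled summit. Among protein-coding genes the shares were 23.2% and 56.4%, and both sets were counted within 500 bp of any transcript start. The difference from either background was not tested. For transcription these were 7 of 15 genes. They were Brf, a subunit of polymerase III factor TFIIIB (rank 135, signal value 571.1), bin3, the fly relative of the 7SK capping enzyme (rank 265, signal value 417.3), TfIIA-L (rank 931), Larp7, which binds 7SK RNA (rank 1291), TfIIB (rank 1330), Ice1 of the little elongation complex (rank 1563) and Pbp95, a subunit of the complex that binds the proximal sequence element (rank 1770). Of these 7 genes, Brf, bin3 and TfIIA-L ranked above each snRNA peak, the strongest of which ranked 1287.

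Integrator, the complex that cuts the 3′ end of snRNAs read by polymerase II, had 8 of 14 subunit genes with an optimal summit. These were IntS6 (rank 476), IntS10 (rank 571), the endonuclease IntS11 (rank 758), its partner IntS9 (rank 849), defl (rank 871), omd (rank 2886), IntS4 (rank 3690) and IntS8 (rank 4054). Of the assembly and transport genes 4 of 20 had one: the cap-binding subunit Cbp20 (rank 1526), Smn, whose complex loads the Sm ring (rank 1807), the Sm protein SmD3 (rank 3366) and coil, the coilin of Cajal bodies (rank 3686). Of a last group, listed mainly for snRNP proteins, 5 of 15 had one. These were the U4/U6 protein Prp31 (rank 843), the histone stem-loop binding protein Slbp (rank 1354) and U4-U6-60K (rank 1722). The others were snf, which binds U1 and U2 RNA (rank 2170), and snRNP-U1-C (rank 2925). The share per group was 46.7%, 57.1%, 20.0% and 33.3% in this order, and only that for assembly and transport was below the 23.2% of protein-coding genes. The optimal summits of the pathway genes lay 7 bp (Cbp20) to 485 bp (omd) from a start of the gene. Whether a start of another gene lay nearer was not examined for them. At omd replicate 4 had no summit within 500 bp, and at IntS8 its rank was 8998.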

How the data were processed

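Peak lists of 2 replicates were used as deposited on dm6. Per the texts deposited with the lists, the authors called peaks for each replicate and for the pooled reads against 1 shared control file and kept an optimal list by irreproducible discovery rate. Software and settings for alignment and peak calling, and the cutoff on that rate, were not given in the sources used here. The signal value and the −log10 q-value of each peak are the authors' own, as deposited. Entries were ranked by signal value within a list. Lists on dm3 were not used, since the annotation is on dm6 and coordinates were not converted.

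Gene starts came from Ensembl release 115, without transposable elements, and sequences from RefSeq Release 6. A summit is the peak start plus the deposited offset, and coordinates are 1-based. Promoter windows ran from 250 bases before to 50 after a start. Words of 32 bases were counted over the whole RefSeq sequence. Scripts used Python 3.11.15, numpy 2.4.6, pandas 2.3.3, biopython 1.88 and matplotlib 3.10.9. The matching of summits to starts was tested on simulated data.

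The members and lists were chosen with earlier results of these data known. Genes named are every snRNA gene and every listed protein gene with an optimal summit. Of 71 listed protein symbols, 64 matched, 6 (IntS15, SmG, LSm10, LSm2, LSm5 and LSm6) found no match and 1 named a gene listed already. No test was made, because the series has 1 group and the authors' control file was not analysed here. The main counts of genes with a summit therefore stand beside the count over all annotated genes or over protein-coding genes, taken at any transcript start.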

Additional observations from a re-analysis of the deposited data

How the results depend on the processing

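Of 36 alternative values for 7 counts, 34 stayed within 1.5 times the main count. The 2 that did not came from keeping only the entries of a relaxed list above its median signal value: the pooled list then had a summit at 10 snRNA genes in place of 17, and the list of replicate 4 at 8 in place of 13. Fewer entries are tested there by construction. The alternatives were counted for snRNA and pathway genes only, not over all annotated genes, and a wider window can only raise a count of genes with a summit. They show how far the main counts move and not how they stand beside a background.

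The 6 genes with an optimal summit became 5 within 250 bp, where U6:96Ab was lost, and 8 within 1000 bp, where U11 (938 bp) and U5:35D (531 bp) were added. With only 1 replicate, read as its strongest 4293 entries, the count was 5 to 7: without replicate 3 U5:63BC was lost, and without replicate 4 U1:21D was added. The count of genes whose optimal summit was nearer to their own start than to a protein-coding start also ranged from 5 to 7 with only 1 replicate, and that of pathway genes from 21 to 26. Within 1000 bp the summit was nearer to the snRNA at 6 of 8 genes, and by distance to the gene body at 6 of 7. The genes added there thus had an optimal summit that was not nearer to the snRNA than to a protein-coding start. Over the other alternatives the 24 pathway genes became 17 to 26, with 17 in the stronger part of the optimal list and 19 within 250 bp. Counting loci within 1000 bp once gave 5 of 26 loci. No paired analysis was possible because the series has 1 group and no result comes from a test. Read depth is unknown, so an entry missing from a list cannot be read as a measured absence, and the number of snRNA genes per class, 1 to 7, limits what a count by class can show.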
